A study of Mus musculus with 15 samples.

Results

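The adult globin genes of the mouse encode the 2 kinds of chain of adult hemoglobin, and 4 of them, Hbb-bs, Hbb-bt, Hba-a1 and Hba-a2, were followed here by name across 4 genotypes of donor bone marrow. The list also held Ahsp, which is not analysed here, so that 4 of 5 listed genes, out of 45706 genes counted, are described. Their levels were measured by RNA-seq of poly(A) RNA in 15 libraries of lineage-negative (Lin-) bone marrow cells, that is, marrow from which cells carrying antigens of mature blood lineages had been removed on magnetic columns. Among the antibodies used for this depletion was Ter-119, which binds maturing erythroid cells. The 4 genotypes were WT (n = 3), Puma-/- (n = 4), G3 mTerc-/-Puma+/+ (n = 4) and G3 mTerc-/-Puma-/- (n = 4). In Puma-/- mice the gene of the pro-apoptotic p53 target Puma (Bbc3) is deleted, and G3 mTerc-/- mice are the third generation bred without the RNA component of telomerase, so that their telomeres have shortened. The question the comparison of genotypes addresses is how loss of Puma acts on stem cells with short telomeres.

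All libraries shared the same history. Hematopoietic stem and progenitor cells (LSK cells) of donors on the C57BL/6J background were transplanted serially into lethally irradiated B6.SJL-PtpraPepcb/BoyJ recipients, and the Lin- cells came from the femurs of secondary recipients. Donor cells are not described as sorted from host cells before RNA extraction, so that host cells may be included. The labels do not say whether replicates of a genotype came from separate donors, and p-values then measure only the spread between these samples.

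Hemoglobin is a tetramer of a pair of alpha-type and a pair of beta-type chains, each holding a heme group that binds oxygen. The genes of each type lie in a cluster, and in mice the embryonic members are used first and the adult members take over in the fetal liver and the marrow. Transcription of the adult genes rises steeply as erythroid progenitors become erythroblasts, together with the genes of heme synthesis and of the red cell membrane skeleton, and free alpha chains are held by a chaperone until a beta chain is available. In bulk samples, fewer cells of a type and less RNA per cell cannot be told apart.

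In the GENCODE annotation of the mouse genome build GRCm38, the beta-type genes Hbb-bs (ENSMUSG00000052305) and Hbb-bt (ENSMUSG00000073940) lie on the minus strand at chr7:103826534-103828096 and chr7:103812524-103813996. The alpha-type genes Hba-a1 (ENSMUSG00000069919) and Hba-a2 (ENSMUSG00000069917) lie on the plus strand at chr11:32283511-32284465 and chr11:32296489-32297298. All 4 are protein coding, and no other annotated gene overlaps any of them. The 250 bases before each RefSeq start (GRCm38.p6) are shown because the 4 genes moved together across the libraries and because the degree of likeness between copies bears on how their reads can be told apart. Capitals mark 4 short motifs searched on both strands, which are CACCC (the core of sites of KLF1), CCAAT (NF-Y), GATAA (GATA1) and TATAA (the TATA box). A motif on the minus strand of the gene appears as its reverse complement, and adjoining motifs can run together.
Hbb-bs: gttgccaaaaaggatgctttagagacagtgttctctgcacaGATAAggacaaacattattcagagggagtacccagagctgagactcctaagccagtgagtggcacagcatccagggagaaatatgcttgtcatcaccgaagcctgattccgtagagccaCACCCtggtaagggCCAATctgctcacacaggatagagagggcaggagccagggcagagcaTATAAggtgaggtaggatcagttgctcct
Hbb-bt: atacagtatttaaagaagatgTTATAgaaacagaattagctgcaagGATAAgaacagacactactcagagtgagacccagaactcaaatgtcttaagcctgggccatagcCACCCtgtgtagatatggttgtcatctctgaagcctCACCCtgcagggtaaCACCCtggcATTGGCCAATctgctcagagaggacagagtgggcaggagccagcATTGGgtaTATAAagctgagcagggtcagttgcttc
Hba-a1: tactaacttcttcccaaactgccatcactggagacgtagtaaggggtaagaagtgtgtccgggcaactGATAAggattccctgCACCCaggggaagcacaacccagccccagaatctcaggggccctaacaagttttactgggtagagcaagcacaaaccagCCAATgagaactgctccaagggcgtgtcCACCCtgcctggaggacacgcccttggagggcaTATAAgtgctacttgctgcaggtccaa
Hba-a2: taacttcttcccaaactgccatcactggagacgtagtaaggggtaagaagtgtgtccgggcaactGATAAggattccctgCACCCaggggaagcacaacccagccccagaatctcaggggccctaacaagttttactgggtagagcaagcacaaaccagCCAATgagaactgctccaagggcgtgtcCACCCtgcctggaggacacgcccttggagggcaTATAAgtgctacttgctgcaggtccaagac
The windows are chr7:103827929-103828178 (minus strand) for Hbb-bs, chr7:103813924-103814173 (minus strand) for Hbb-bt, chr11:32283422-32283671 (plus strand) for Hba-a1 and chr11:32296242-32296491 (plus strand) for Hba-a2. Each window overlaps the 5′ end of its GENCODE gene, which begins upstream of the RefSeq start.

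All 4 windows held all 4 motifs. Of 32851 RefSeq promoter windows of this length, 318 (0.968%) held all of them, while CACCC alone was in 52%, CCAAT in 33.8%, TATAA in 22.8% and GATAA in 22.6%. TATAA lay 29 bases before the start of Hbb-bs, 28 before Hbb-bt, 27 before Hba-a1 and 30 before Hba-a2. CCAAT lay 76 bases before the start of Hbb-bs and 88 before that of Hba-a1, and GATAA lay 209 and 182 bases before them. Hbb-bt held CACCC at 3 positions, 140, 104 and 89 bases before its start, whereas Hbb-bs held it at 1, 90 bases before its start. These matches describe the letters of the windows and are not evidence of a bound factor. The motifs were chosen by name and not found by a search, and no test was run against the share of all windows.

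The promoter windows of Hba-a1 and Hba-a2 were 97.6% identical and those of Hbb-bs and Hbb-bt 69.3%. Within each pair the coding sequences differed at 1 base, of 444 for the beta-type genes and of 429 for the alpha-type genes, and both members of a pair encode the same protein, of 147 and 142 residues. Of all stretches of 100 bases in the RNA, 37.4% were unique to the gene for Hbb-bs, 45.2% for Hbb-bt, 43.5% for Hba-a1 and 25.5% for Hba-a2, and the other stretches were shared only with the paralog. The split of reads within a pair is therefore uncertain, whereas the sum over a pair and the ratio of alpha-type to beta-type counts do not depend on it except through reads left uncounted. The coding sequences of Hbb-bs and Hba-a1 were 57.8% identical.

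Libraries held 102790519 to 158367059 counts (median 112046464). In the libraries labelled as G3 mTerc-/-Puma-/-, Bbc3 (Puma) stood at 13.5 to 17.1 normalized CPM (counts scaled to a common library size), within the 11.8 to 20.8 of the G3 mTerc-/-Puma+/+ libraries and above the 5.04 to 6.83 of the Puma-/- libraries (WT, 9.71 to 23.6). This goes against the label, and these samples are therefore called the libraries labelled as G3 mTerc-/-Puma-/- throughout. Terc, the telomerase RNA gene, had 0 or 1 counts in every mTerc-/- library and 4 to 17 in the others. Xist, expressed from the inactive X chromosome, and the Y-linked Ddx3y showed that the sex of the cells also differed between groups, with Ddx3y at 21.3 to 43.2 in WT, 0.0178 to 0.0448 in Puma-/-, 42.8 to 48.3 in G3 mTerc-/-Puma+/+ and 2.88 to 46.0 in the libraries labelled as G3 mTerc-/-Puma-/-. The library labelled as G3 mTerc-/-Puma-/- replicate 2 stood apart from all others and is absent from the expression heatmap of the study. Results are given over the 14 other libraries and again over all 15.

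The 4 adult globin genes were low in all genotypes but clearly detected, at 2.18 to 79.0 normalized CPM over the 14 libraries, against a floor of 3 counts of 0.0189 to 0.0292 CPM. They were highest in the libraries labelled as G3 mTerc-/-Puma-/- replicates 1, 2 and 3, and replicate 4 of that group lay with the other genotypes. Hbb-bs, the beta-type gene with more counts, stood at 15.6, 7.99 and 24.2 normalized CPM in WT and at 10.5, 17.3, 11.7 and 8.06 in Puma-/-. It stood at 22.1, 6.42, 12 and 13.9 in G3 mTerc-/-Puma+/+, and at 79.0, 482, 39.7 and 11 in replicates 1 to 4 labelled as G3 mTerc-/-Puma-/-. Of the latter, the first 3 were above every library of the other genotypes and the last was inside their range, so the groups overlapped.

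Hbb-bt, which encodes the same chain, stood at 5.49, 2.91 and 7.52 normalized CPM in WT and at 2.41, 4.88, 4.73 and 3.27 in Puma-/-. Its values were 7.11, 2.39, 4.49 and 4.66 in G3 mTerc-/-Puma+/+, and 23.8, 172, 12.4 and 4.11 in the libraries labelled as G3 mTerc-/-Puma-/-. As for Hbb-bs, 3 libraries of the last group were on top and replicate 4 was among the rest. WT, Puma-/- and G3 mTerc-/-Puma+/+ overlapped one another.

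Hba-a1, the alpha-type gene with more counts, stood at 16.5, 7.84 and 22.4 normalized CPM in WT and at 8.49, 14.2, 13.3 and 7.64 in Puma-/-. In G3 mTerc-/-Puma+/+ it stood at 19.9, 6.36, 12.9 and 11.9, and in the libraries labelled as G3 mTerc-/-Puma-/- at 67.7, 416, 28.3 and 11.6. Again only replicate 4 of the last group lay within the range of the other genotypes. Hba-a2 stood at 5.36, 2.75 and 8.43 in WT and at 2.83, 5.10, 3.59 and 2.88 in Puma-/-. Its values were 5.77, 2.18, 3.6 and 4.27 in G3 mTerc-/-Puma+/+, and 23.0, 179, 14.4 and 3.24 in the libraries labelled as G3 mTerc-/-Puma-/-. Within WT, replicate 2 was the lowest for all 4 genes and replicate 3 the highest, and within G3 mTerc-/-Puma+/+ replicate 1 was the highest and replicate 2 the lowest.

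**Figure D1:**
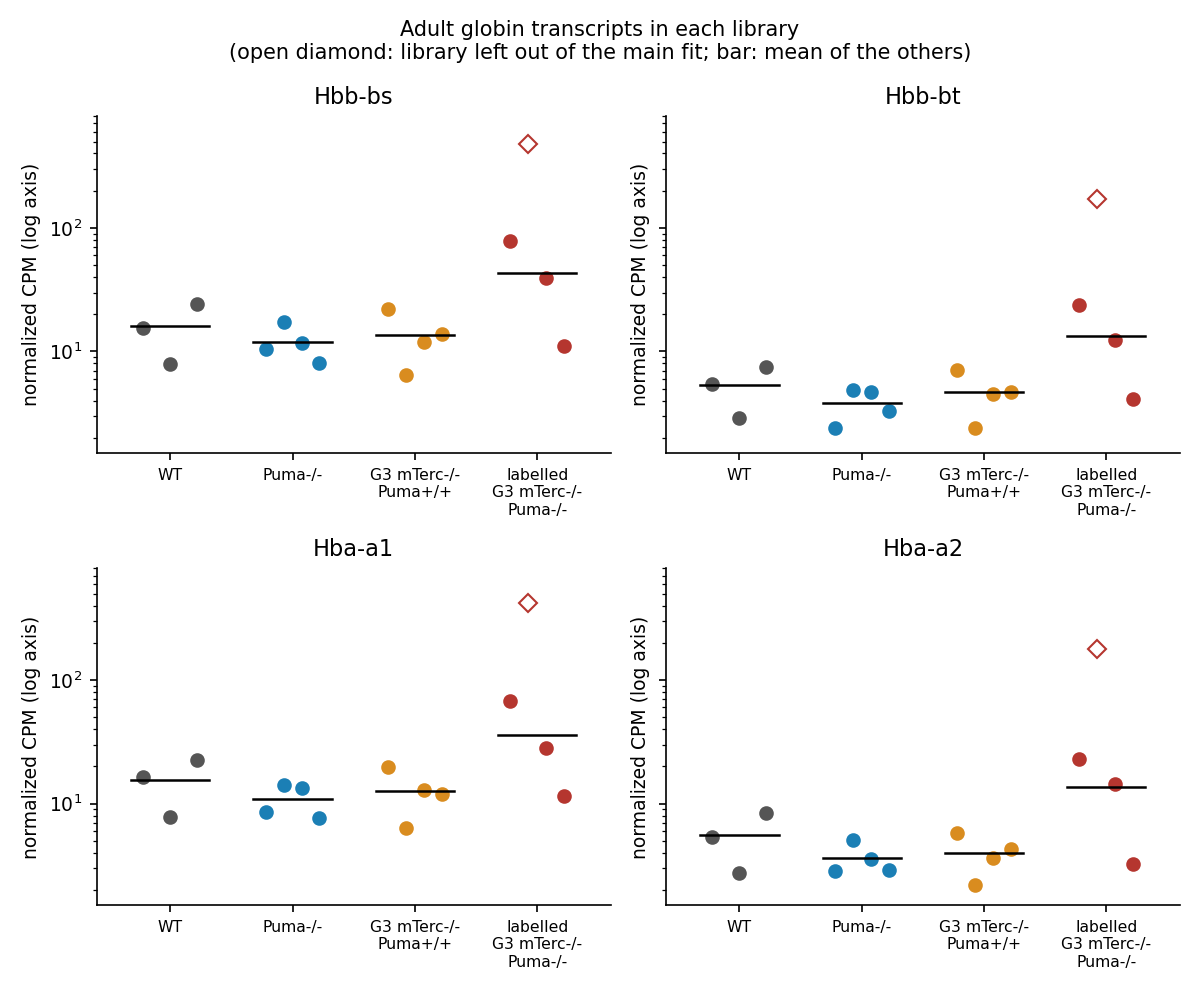
Normalized CPM (log axis) of Hbb-bs, Hbb-bt, Hba-a1 and Hba-a2 in each of the 15 libraries, grouped by genotype, with 1 point per library, a bar at the group mean and an open diamond for the library labelled as G3 mTerc-/-Puma-/- replicate 2, which the mean leaves out. In each panel this library is on top (482, 172, 416 and 179 CPM) and replicate 4 of that group lies among the other genotypes.

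Averaged by genotype, Hbb-bs stood at 15.9 ± 8.09 normalized CPM (SD) over 3 WT libraries, at 11.9 ± 3.9 over 4 Puma-/- libraries and at 13.6 ± 6.48 over 4 G3 mTerc-/-Puma+/+ libraries. Over 3 libraries labelled as G3 mTerc-/-Puma-/- its mean was 43.2 ± 34.1. The mean of the last group became 153 ± 221 when replicate 2 was included (n = 4), so that its SD exceeded its mean. Replicate 2 exceeded the highest of the 14 other libraries 6.10-fold for Hbb-bs, 7.21-fold for Hbb-bt, 6.15-fold for Hba-a1 and 7.81-fold for Hba-a2. Among those 14, the highest exceeded the lowest 12.3-fold, 9.96-fold, 10.6-fold and 10.6-fold for the same genes.

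Per kilobase of merged exons, averaged over the 14 libraries, Hbb-bs was at 26.0 normalized CPM, Hba-a1 at 21.9, Hba-a2 at 9.36 and Hbb-bt at 9.16. On this scale Hbb-bs and Hba-a1 were above Hba-a2 and Hbb-bt, but the order within the alpha-type pair depends on how much of each RNA is unique. The ratio of Hba-a1 to Hba-a2 counts, averaged over the 14 libraries, was 3. It became 0.937 per unique stretch of 50 bases and 1.33 per unique stretch of 100 bases. Which of the copies was more abundant is therefore not known from these counts. For Hbb-bs to Hbb-bt the averaged ratio of 3.02 became 4.16 with either length.

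Loss of Puma alone and loss of mTerc alone were not accompanied by a difference in any of the 4 genes beyond the spread between replicates. In Puma-/- against WT the log2 fold changes were -0.42 (SE 0.548) for Hbb-bs, -0.47 for Hbb-bt, -0.51 for Hba-a1 and -0.62 for Hba-a2, with adjusted p of 0.708 to 0.822 by edgeR's quasi-likelihood test, adjusted by Benjamini-Hochberg over 18983 genes. In G3 mTerc-/-Puma+/+ against WT they were -0.23, -0.19, -0.29 and -0.48, each with an adjusted p of 0.998 in edgeR. Between G3 mTerc-/-Puma+/+ and Puma-/- they were 0.19, 0.29, 0.23 and 0.14, with adjusted p of 0.794 to 0.915 in edgeR. In these 3 comparisons 0 of 4 genes passed at an adjusted p of 0.05 and 0 of 4 had an unadjusted p under 0.05, in edgeR over 14 or over 15 libraries, and none passed in DESeq2 or limma-voom. Of all genes tested, 0.0790%, 0.0369% and 0.801% passed in the same 3 comparisons, and 0.0679%, 0.0209% and 0.125% over all 15 libraries. At an unadjusted p under 0.05 the shares were 10.1%, 3.86% and 17.1%, and 6.1%, 2.48% and 12.6% over 15, so that 0 of 4 is close to the background. With standard errors of 0.500 to 0.548 on the log2 scale in the first of them, a difference of that size could not have passed.

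In the libraries labelled as G3 mTerc-/-Puma-/- the mean levels of all 4 genes were above those of each other genotype, and this difference did not pass the threshold. Against Puma-/- the log2 fold changes over the 14 libraries were 1.86 (SE 0.551) for Hbb-bs, 1.81 (SE 0.502) for Hbb-bt, 1.72 (SE 0.515) for Hba-a1 and 1.91 (SE 0.527) for Hba-a2. Their adjusted p in edgeR were 0.264, 0.218, 0.277 and 0.214, and their unadjusted p 0.00471, 0.00296, 0.00506 and 0.00287. None of the 4 passed, against 0.306% of all genes tested in this comparison, and 4 of 4 had an unadjusted p under 0.05, against 8.42% of all genes. The 4 genes ran together across the 14 libraries (Pearson's r of 0.971 to 0.988 between pairs). A count of 4 of 4 is therefore not 4 independent results, here and below. Neither DESeq2 (adjusted p 0.0631 to 0.112) nor limma-voom (0.397 to 0.480) called any of them over the 14 libraries.

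Against G3 mTerc-/-Puma+/+ the log2 fold changes of the libraries labelled as G3 mTerc-/-Puma-/- were 1.67 for Hbb-bs, 1.52 for Hbb-bt, 1.49 for Hba-a1 and 1.78 for Hba-a2, with adjusted p of 0.377 to 0.517 in edgeR. Against WT they were 1.44, 1.34, 1.2 and 1.3, with adjusted p of 0.816 to 0.909 in edgeR. In both comparisons 0 of 4 passed in edgeR, DESeq2 or limma-voom and 4 of 4 had an unadjusted edgeR p under 0.05, while 0.0738% and 0.0632% of all genes tested passed in edgeR and 6.22% and 5.45% had an unadjusted p under 0.05. The interaction asks whether loss of mTerc acts differently on the background labelled as Puma-/- and on the Puma+/+ background, and it rests on the libraries whose Bbc3 level goes against their label. It was 2.09, 2.00, 2.01 and 2.39 on the log2 scale, with adjusted p of 0.701 to 0.891 in edgeR. It passed for 0 of 4 genes by any of the 3 tools, with 4 of 4 at an unadjusted edgeR p under 0.05, and for 0.0527% of all genes in edgeR, with 4.93% at an unadjusted p under 0.05. These comparisons share groups and are not independent of one another, and neither are the 4 genes. The median over the 4 genes was 1.84 against Puma-/-, whereas the median over all genes tested lay between -0.02 and 0.02 in each comparison.

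Replicate 1 labelled as G3 mTerc-/-Puma-/- was the highest of the 14 libraries for all 4 genes, 1.59-fold to 2.39-fold above the next. Without it the log2 fold changes fell to 0.87 to 1.30 against Puma-/-, 0.64 to 1.16 against G3 mTerc-/-Puma+/+ and 0.36 to 0.68 against WT, and the interaction fell to 1.16 to 1.77. Without replicate 4 the interaction was 2.43 to 2.86 and the log2 fold changes against Puma-/- were 2.14 to 2.38, with adjusted p of 0.0512 to 0.125 in edgeR.

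**Figure D2:**
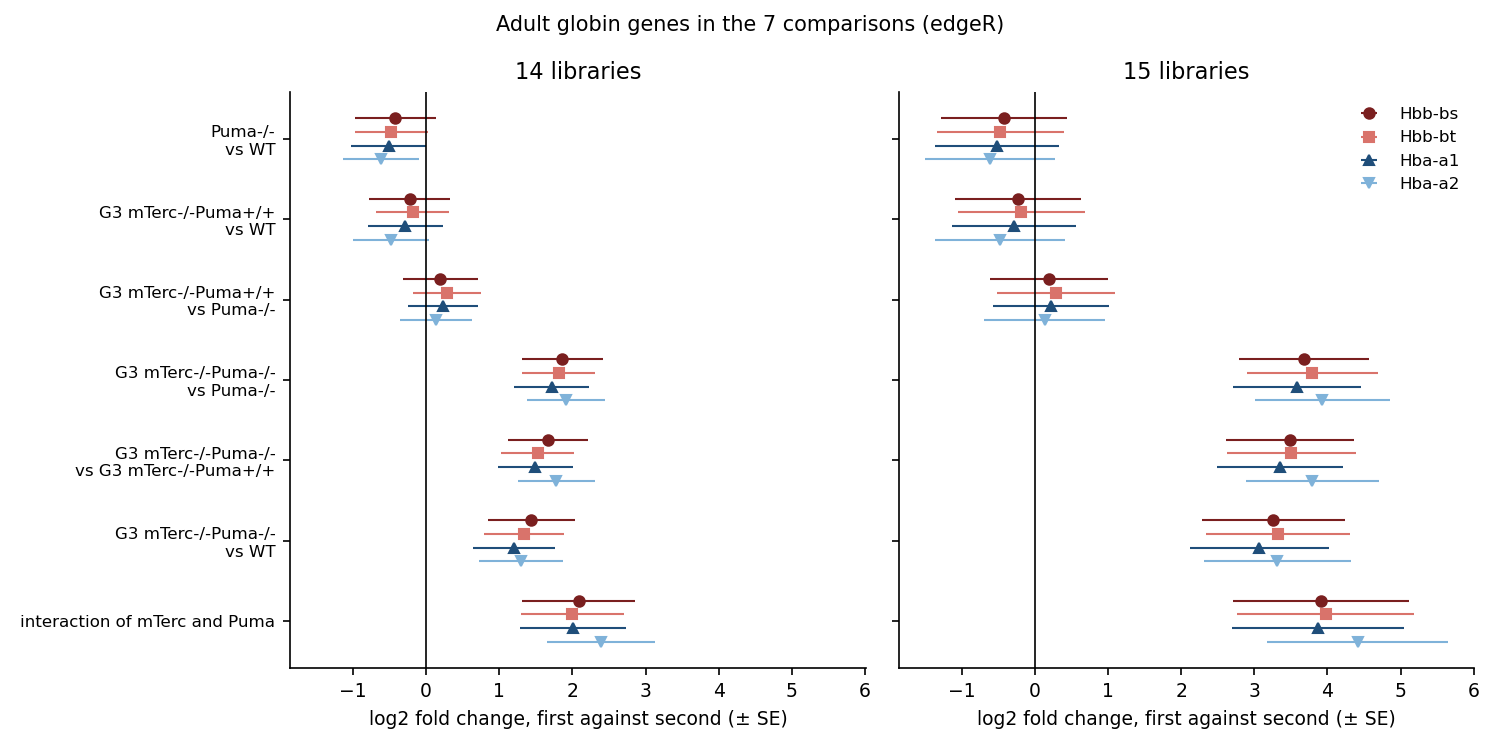
Log2 fold changes of the 4 genes in each comparison of genotypes, over 14 libraries and over all 15, with bars of 1 SE from edgeR. The libraries labelled as G3 mTerc-/-Puma-/- lie 1.2 to 1.91 above the other genotypes over 14 libraries and 3.07 to 3.93 over 15, the interaction lies at 2.00 to 2.39 and 3.87 to 4.41, and the comparisons among the other genotypes lie at -0.62 to 0.29.

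With all 15 libraries the differences were larger and so were their errors. Against Puma-/- the log2 fold changes were 3.68 (SE 0.888) for Hbb-bs, 3.79 (SE 0.893) for Hbb-bt, 3.59 (SE 0.871) for Hba-a1 and 3.93 (SE 0.921) for Hba-a2, with adjusted p of 0.129 to 0.152 in edgeR. They were 3.36 to 3.8 against G3 mTerc-/-Puma+/+ (adjusted p 0.208 to 0.230 in edgeR), 3.07 to 3.32 against WT (0.390 to 0.400) and 3.87 to 4.41 for the interaction (0.992 to 1). Thus 0 of 4 passed in edgeR in any of these comparisons and 4 of 4 had an unadjusted p under 0.05 in each, while 0.308%, 0.0313%, 0.0418% and 0.0470% of all genes passed and 7.48%, 10.2%, 8.8% and 3.18% had an unadjusted p under 0.05. Here too the 4 genes are not independent of one another. The call depended on the tool. DESeq2 over 15 libraries called 4 of 4 against Puma-/- (adjusted p 0.00140 to 0.00421; 1.35% of all genes), 4 of 4 against G3 mTerc-/-Puma+/+ (0.00358 to 0.0116; 1.66%) and 3 of 4 against WT, all but Hba-a1 (0.0423 to 0.0655; 1.15%), and none for the interaction. Over the same 15 libraries limma-voom called none (adjusted p 0.577 to 0.647 against Puma-/-). Each of the other 3 libraries of the group was also left out in turn from the 15. Without replicate 4, which has the lowest globin levels of its group, edgeR called 4 of 4 against Puma-/- (3.97 to 4.33 on the log2 scale, adjusted p 0.0284 to 0.0457; 0.273% of all genes) and none against G3 mTerc-/-Puma+/+ (0.0763 to 0.0925) or WT (0.162 to 0.186). Without replicate 1 (adjusted p 0.115 to 0.138 against Puma-/- in edgeR) or replicate 3 (0.113 to 0.124) it called none in any comparison. These last settings were chosen after the data were seen.

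As a share of all counts, the 4 genes together took 0.00423%, 0.00213% and 0.00588% in WT and 0.00249%, 0.00442%, 0.00318% and 0.00222% in Puma-/-. They took 0.00556%, 0.00160%, 0.00334% and 0.00346% in G3 mTerc-/-Puma+/+, and 0.0194%, 0.133%, 0.00960% and 0.00301% in the libraries labelled as G3 mTerc-/-Puma-/-. For the lowest of these shares the 95% Wilson interval was 0.00153% to 0.00167% and for the highest 0.132% to 0.134%, so that counting error was small beside the spread between replicates, and the interval covers counting error only. The mean share was 0.00408% ± 0.00188 (SD) over 3 WT libraries, 0.00308% ± 0.000981 over 4 Puma-/- libraries, 0.00349% ± 0.00162 over 4 G3 mTerc-/-Puma+/+ libraries and 0.0107% ± 0.00825 over 3 libraries labelled as G3 mTerc-/-Puma-/-. The share in the last group differed from Puma-/- by 1.47 on the log2 scale (two-sided exact permutation test, p = 0.114), from G3 mTerc-/-Puma+/+ by 1.37 (exact p = 0.2) and from WT by 1.13 (exact p = 0.300). With replicate 2 these differences were 2.48 (exact p = 0.0857), 2.38 (0.114) and 2.14 (0.171). Over the 14 libraries they were 0.86, 0.76 and 0.52 without replicate 1 of the last group, and 2.2, 2.1 and 1.86 without its replicate 4. Over the 24 such tests on the share and on the ratios below, the lowest Benjamini-Hochberg adjusted p was 0.900 over 14 libraries and 0.882 over 15, and no raw p was under 0.05. With 4 against 3 or 4 libraries the smallest p possible is 0.0286, and with 3 against 3 it is 0.100.

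While the summed share of the 4 genes varied 12.1-fold over the 14 libraries, the balance of alpha-type to beta-type counts varied little. The ratio of Hba (Hba-a1 plus Hba-a2) to Hbb (Hbb-bs plus Hbb-bt) was 0.934 ± 0.0669 (SD, n = 14), between 0.823 and 1.03, and 0.911 in the library with the highest level. By genotype it was 0.993 ± 0.0357 (SD) over 3 WT libraries, 0.925 ± 0.0724 over 4 Puma-/- libraries, 0.929 ± 0.0626 over 4 G3 mTerc-/-Puma+/+ libraries and 0.895 ± 0.080 over 3 libraries labelled as G3 mTerc-/-Puma-/-. The largest difference between genotypes, from WT to the last group, was -0.15 on the log2 scale (SE 0.0796, two-sided exact permutation p = 0.300), and the smallest p among the 6 pairs was 0.2 in an exact test. Counts reflect gene length as well as level, so that a ratio near 1 is not a ratio of molecules, and comparisons between libraries do not depend on this.

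Within pairs, the ratio of Hbb-bs to Hbb-bt was 3.02 ± 0.503 (SD, n = 14) and that of Hba-a1 to Hba-a2 was 3 ± 0.463 (n = 14), with no difference between genotypes past the threshold. As given above, the size of the second ratio, unlike its comparison between libraries, follows the number of unique stretches. These ratios varied between replicates by more than counting error. For Hbb-bs to Hbb-bt, Puma-/- replicate 1 stood at 4.36 (95% Wilson interval 3.83 to 4.96) and Puma-/- replicate 4 at 2.47 (2.18 to 2.79). For Hba-a1 to Hba-a2, the libraries labelled as G3 mTerc-/-Puma-/- stood at 2.95, 2.32, 1.96 (1.85 to 2.08) and 3.57 (3.20 to 3.98) in replicates 1 to 4, and replicates 2 and 3 were the lowest of all 15. Whether this reflects transcription of the copies or the assignment of reads between near-identical sequences was not tested.

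**Figure D3:**
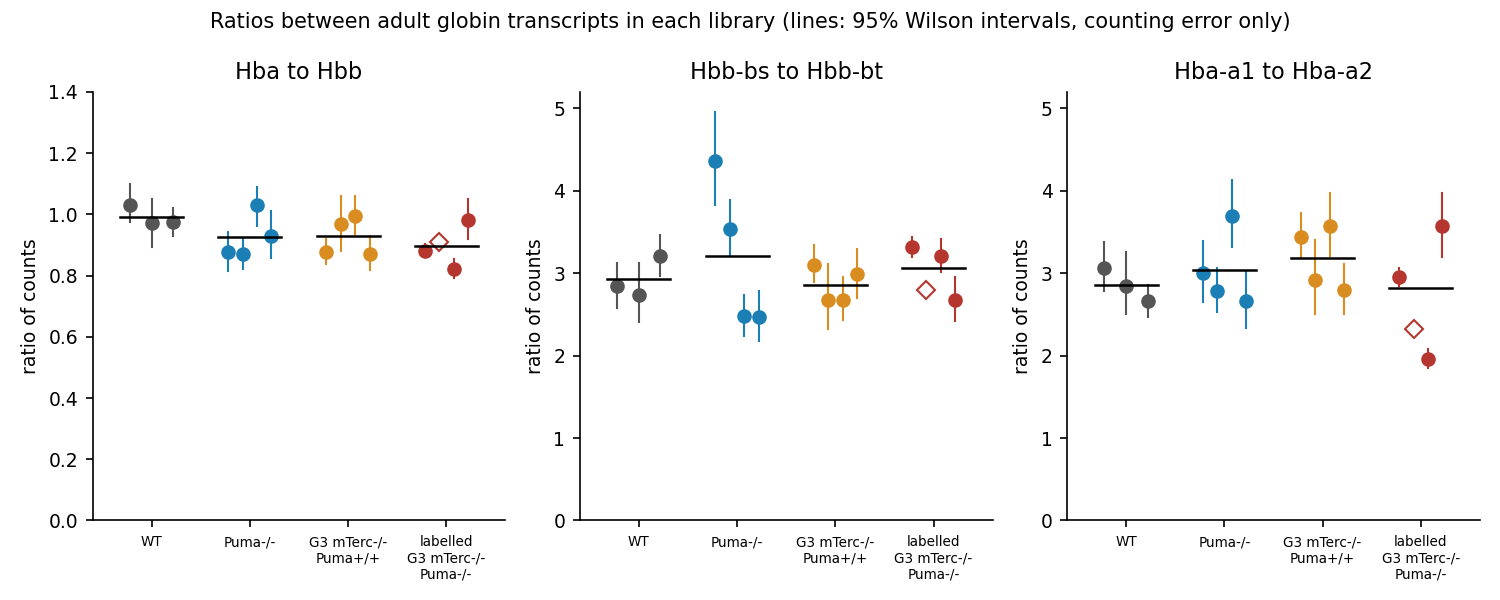
Ratios of counts in each library by genotype, for Hba to Hbb, Hbb-bs to Hbb-bt and Hba-a1 to Hba-a2, with 95% Wilson intervals of each ratio as bars. Hba to Hbb stays between 0.823 and 1.03 in all libraries, and Hba-a1 to Hba-a2 is lowest, at 1.96, in the library labelled as G3 mTerc-/-Puma-/- replicate 3.

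Across the 14 libraries the log2 CPM of the 4 genes ran together, with Pearson's r of 0.971 to 0.988 between pairs of them and of 0.991 to 0.995 over all 15. These are descriptions over libraries that share depth and preparation, and reads exchanged between near-identical copies raise the value within a pair.

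Of the other 7 globin genes of the same clusters, all but 1 had few counts. Hbb-y, the embryonic beta-type gene, had 0 to 7 counts in any library, Hbb-bh0 0 to 1, Hbb-bh1 0 to 2, Hbb-bh2 0 to 1, the embryonic alpha-type gene Hba-x 0 to 5 and the theta-type gene Hbq1a 0 to 13. Only Hbq1b, the other theta-type gene, passed the filter on low counts. It stood at 0.204 to 0.416 normalized CPM in the libraries labelled as G3 mTerc-/-Puma-/- other than replicate 2, at 1.21 in replicate 2 and at 0 to 0.169 in the other genotypes. Against Puma-/- its fitted difference was 1.83 on the log2 scale (SE 0.696), with an adjusted p of 0.467 in edgeR.

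The genes that work with the globins were taken from lists by role. No gene of these lists passed in edgeR in any of the 7 comparisons over 14 or over 15 libraries, and the counts below stand beside 8.42% of all genes at an unadjusted p under 0.05 in the comparison with Puma-/- over 14 libraries. Of 13 genes of heme synthesis, 11 had a positive log2 fold change in the libraries labelled as G3 mTerc-/-Puma-/- against Puma-/-, 2 with an unadjusted edgeR p under 0.05, and their median was 0.06. Alas2, the erythroid form of the first enzyme, was at 1.55 (SE 0.539, adjusted p 0.411 in edgeR), whereas Alas1, its housekeeping form, was at 0.00 (adjusted p 1) and the mitochondrial porphyrin transport protein Tmem14c at 0.23. Of 15 genes of the erythroid membrane 14 were positive, 10 with an unadjusted edgeR p under 0.05, with a median of 0.98. Slc4a1, the band 3 anion exchanger, was at 1.46 (SE 0.630, adjusted p 0.558 in edgeR) and Epb42, protein 4.2, at 1.5 (SE 0.456, 0.288). Gypc and Epb41, the members of this list with the highest levels, were at 0.04 and 0.00.

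Among 14 transcription factors of globin genes 5 were positive, 4 had an unadjusted edgeR p under 0.05 and the median was -0.18. Klf1, the erythroid activator of adult beta-globin, was at 0.76 (adjusted p 0.617 in edgeR), Gata1, the erythroid and megakaryocytic regulator, at -0.28 (0.826), Myb, which maintains progenitors, at -0.26 (0.585) and Lmo2, a bridging cofactor of GATA1 and TAL1, at 0.01. Of 10 genes of iron uptake and signal receptors 8 were positive, 4 with an unadjusted p under 0.05, with a median of 0.15 and with the ferritin genes Fth1 and Ftl1 at 0.19 and 0.18. Of 11 genes of oxidative protection and of heme and stress regulation, a list in which no globin chaperone was measured, 9 were positive, none with an unadjusted edgeR p under 0.05, with Gpx1 at 0.10 and Sod1 at 0.11. Of 17 genes of late erythroid maturation 16 were positive, 3 with an unadjusted p under 0.05, with a median of 0.14. In this list Trim10, expressed in terminal erythroid cells, was at 1.43 (SE 0.471, adjusted p 0.366 in edgeR) and the mitophagy receptor Bnip3l at 0.04.

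The same lists were also counted against the other genotypes over the 14 libraries. The membrane genes were positive in 15 of 15 against G3 mTerc-/-Puma+/+ (median 0.44, 2 with an unadjusted edgeR p under 0.05) and in 14 of 15 against WT (0.77, 2). Of all genes tested, 6.22% and 5.45% had an unadjusted edgeR p under 0.05 in these comparisons. Those of heme synthesis were positive in 3 of 13 (median -0.03) and 11 of 13 (0.09), the transcription factors in 8 of 14 (0.02) and 7 of 14 (0.02), and the genes of oxidative protection in 4 of 11 (-0.01) and 5 of 11 (-0.0046). Those of iron uptake and receptors were positive in 7 of 10 in each (0.06 and 0.13), and those of late maturation in 13 of 17 (0.16) and 14 of 17 (0.12). The medians of the heme, transcription factor and oxidative protection lists thus lay between -0.03 and 0.09 in these comparisons. Differences between comparisons were not tested.

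With all 15 libraries the medians of the comparison with Puma-/- were 2.52 for the membrane genes (15 of 15 positive), 0.52 for heme synthesis (13 of 13), 0.52 for late maturation (17 of 17), 0.29 for iron uptake and receptors, 0.14 for oxidative protection and 0.05 for transcription factors. These fits differ by replicate 2. Slc4a1 stood at 44.1, 338, 10.3 and 4.60 normalized CPM in replicates 1 to 4 labelled as G3 mTerc-/-Puma-/-, and Alas2 at 9.16, 58.5, 2.95 and 1.29. The order was that of the globins in both. Klf1, at 10.3, 58.6, 11.9 and 9.26, and Gata1, at 13.6, 50.5, 16.6 and 15.3, were far higher in replicate 2 than in the other 3 of this group, which lay close together.

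The 8 erythroblast markers, among them Slc4a1, Alas2, Epb42, Klf1, Gata1, Tfrc and Car2, were detected in every library, so that none of them was at 0 in these lineage-depleted cells. Their summed level was 229.2 to 301.1 normalized CPM in WT, 232.6 to 309.3 in Puma-/-, 273.4 to 322.4 in G3 mTerc-/-Puma+/+ and 306.4 to 372.6 in the libraries labelled as G3 mTerc-/-Puma-/-, with 1234 in replicate 2. The sum of the 4 globins was 21.5 to 62.5, 21.8 to 41.4, 17.4 to 54.8 and 29.9 to 194, with 1249 in replicate 2. Thus both sums were highest in the same library. Against Puma-/-, 7 of 8 markers were positive over 14 libraries, 5 with an unadjusted edgeR p under 0.05, with a median of 1.05, among them Tfrc, the transferrin receptor, at 0.31 and Car2, carbonic anhydrase II, at 0.41. The part of a different number of erythroblasts in the globin levels was not tested.

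Markers of other cells also differed between libraries. In replicate 2 labelled as G3 mTerc-/-Puma-/- the progenitor gene Flt3 stood at 3.45 normalized CPM against 138 to 169 in the other 3 libraries of its group, Csf1r, the receptor of macrophage colony-stimulating factor, at 26.0 against 265 to 377, and Cd34 at 86.1 against 181 to 212. Kit, the stem cell factor receptor, went the other way, at 146 against 114 to 128, and so did Ly6a, the Sca-1 antigen, at 48.0 against 24.3 to 41.1. The 4 stem and progenitor markers summed to 283.5 there and to 359.8 to 613.9 elsewhere. The 4 monocyte and macrophage genes, Csf1r among them, summed to 1160 in replicate 2 and to 1727 to 1799 in the other 3 libraries of its group. They did not all follow Csf1r. Pearson's r with the mean of the 4 globins went from 0.57 over 14 libraries to -0.72 over 15 for Csf1r, but from 0.20 to 0.63 for Vcam1. Against Puma-/- 4 of the 4 were positive over 14 libraries (median 0.16) and 3 over 15 (0.28), and none passed. Over 14 libraries, the libraries labelled as G3 mTerc-/-Puma-/- were lower than Puma-/- in the megakaryocyte genes Pf4 (-2.22, SE 0.308, adjusted p 0.00594 in edgeR) and Gp9 (-1.62, SE 0.253, 0.0143) and in both platelet genes, Ppbp and Gp1bb, and higher in Igll1, a gene of early B cells (2.46, SE 0.446, 0.0363). Over all 15 libraries Gp9 (adjusted p 0.0938 in edgeR) and Igll1 (0.265) no longer passed, whereas Pf4 (0.00181), Ppbp (0.0164) and Gp1bb (0.00941) did. The megakaryocyte gene Itga2b passed as lower over 15 libraries but not over 14. Against the same Puma-/- libraries, G3 mTerc-/-Puma+/+ was also lower in Pf4 (-1.63, adjusted p 0.0213 in edgeR), Gp9 (-1.29, 0.031) and Gp1bb (-1.52, 0.0429), of which only Pf4 (0.0374) still passed over 15 libraries. The summed platelet genes were at 52.37 to 98.39 normalized CPM in Puma-/-, above 15.41 to 45.08 in WT, 15.7 to 37.51 in G3 mTerc-/-Puma+/+ and 13.13 to 17.34 in the libraries labelled as G3 mTerc-/-Puma-/-. Of 6 neutrophil genes 4 were positive in the latter against Puma-/- over 14 libraries, with a median of 0.93 and 3 at an unadjusted edgeR p under 0.05, and none passed. Ltf, lactoferrin, a gene of maturing neutrophils, was at 1.69 (SE 0.681, adjusted p 0.519 in edgeR), and it stood at 52.8, 231, 176 and 144 normalized CPM in replicates 1 to 4. Mpo, myeloperoxidase, and Elane, neutrophil elastase, which mark earlier stages, were at -0.23 and -0.09. Summed, the neutrophil genes were at 20380 in replicate 2 and at 10970 to 14560 in the other 3 libraries of its group. Over the 14 libraries the mean levels were 9390 for Mpo and 3520 for Elane, and 11.1 to 543 for the other genes of this list. The sum is thus weighted to genes of earlier stages and does not measure the maturing neutrophil genes. The part of these other cell types in the globin results was not tested.

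Among the 10 genes whose log2 CPM followed the mean of the 4 globins most closely over the 14 libraries, out of 18979 ranked by Pearson's r, were Alas2 (0.947), Slc4a1 (0.919), Apol8 (0.918), Dmtn (0.917), Ypel4 (0.907), Trim10 (0.907), Epb42 (0.902), Btnl10 (0.900) and Apol11b (0.892). These r are descriptions over 14 libraries that include the genotype differences. Alas2 was at 0.791 to 2.34 normalized CPM in WT, 1.06 to 2.12 in Puma-/-, 1.03 to 2.34 in G3 mTerc-/-Puma+/+ and 1.29 to 9.16 in the libraries labelled as G3 mTerc-/-Puma-/-. In the last group its order was that of the globins, and replicate 4 lay inside the range of the other genotypes. Ranked on all 15 libraries, 9 of the 10 genes stayed among the first 10. Of the regulators, Klf1 had an r of 0.47 over 14 libraries and 0.82 over 15, and Gata1 one of 0.02 and 0.63. Hbq1b had an r of 0.83 over 14 libraries and ranked at 23.

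**Figure D4:**
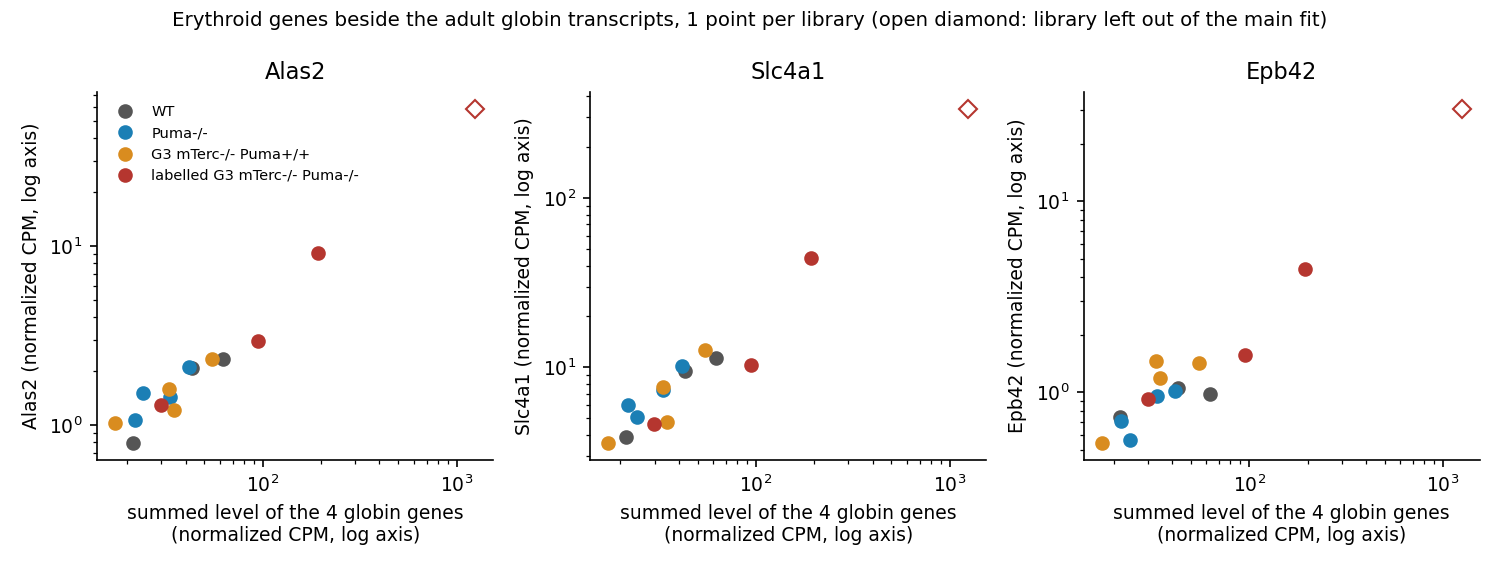
Alas2, Slc4a1 and Epb42 (normalized CPM, log axis) against the summed level of the 4 globin genes (normalized CPM, log axis), 1 point per library coloured by genotype. The points rise together in each panel, and the open diamond, the library labelled as G3 mTerc-/-Puma-/- replicate 2, lies at the top right with a globin sum of 1249.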

How the data were processed

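RNA of Lin- bone marrow cells was sequenced from TruSeq Stranded mRNA libraries on a NovaSeq. The authors trimmed reads with Trimmomatic 0.38 and aligned them to GRCm38 with STAR 2.5.2b, and deposited counts of reads per gene for 15 libraries. The annotation release and strand setting are not given in the sources used here. Genes without a symbol (563 of 45706) held 0.0643% of counts.

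Samples were grouped by the genotype in the labels. Counts were tested with edgeR 4.0.16 (quasi-likelihood, TMM, filterByExpr, all genotypes in 1 model, Benjamini-Hochberg threshold 0.05) over 14 libraries, leaving 18983 genes. Over all 15 libraries 19146 genes were tested. Normalized CPM are counts scaled to a common TMM library size. DESeq2 1.42.0, limma-voom 3.58.1, other scalings, no filter, the replicate block and leaving out each library were alternatives. Shares and ratios were compared by exact permutation tests. Standard errors are of log2 fold changes. Scripts were tested on simulated data. R 4.3.3, Python 3.11.15 and SciPy 1.17.1 were used.

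Members and lists were chosen with earlier results of these data known. Named genes were the members, the other globins, the genes of each list that passed (at most 3) or else its 2 with the highest mean level, and the 10 genes most like the members. Klf1, Gata1, Flt3, Ly6a and Ltf fall outside this rule and were named after their values were seen. Replicate numbers did not pair the samples. A gene of the lists is not reported here by name.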

Additional observations from a re-analysis of the deposited data

Results flagged for a closer look

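The library labelled as G3 mTerc-/-Puma-/- replicate 2, which is left out of the comparisons over 14 libraries, lay far from the other 3 libraries of its group for every globin measure of level, at 482 normalized CPM for Hbb-bs, 172 for Hbb-bt, 416 for Hba-a1 and 179 for Hba-a2, and at 0.133% of all counts. In each case the gap to the nearest library, divided by the range of the group, was above Dixon's critical value at the 95% level. The values were taken untransformed here, whereas the fold changes and the tests of shares above were on a log2 scale. Whether this library stands out by the same rule on a log scale was not tested. Of 24 groups examined in this way 5 stood out, all of them in this library, and chance does so in about 1 group in 20. The 5 measures are not independent, since the share is made of the 4 genes. None of the 3 ratios between globin genes stood out in this library or in any other group of 4.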

How the results depend on the processing

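The 4 globin genes kept the direction of their log2 fold changes in every alternative fit that kept all libraries of a fit. The calls that were gained over 15 libraries with DESeq2, or with edgeR without replicate 4, are given above, and the cause was not tested. Without single libraries, small differences turned. The ranges were, for Hbb-bs, -0.741 to 0.0118 in Puma-/- against WT, -0.576 to 0.207 in G3 mTerc-/-Puma+/+ against WT and -0.144 to 0.436 in G3 mTerc-/-Puma+/+ against Puma-/-. For Hbb-bt the second of these was -0.479 to 0.152. For Hba-a1 the second and the third were -0.607 to 0.0711 and -0.0740 to 0.457, and for Hba-a2 the third was -0.108 to 0.346. The log2 difference in globin share ranged from -0.168 to 0.432 between G3 mTerc-/-Puma+/+ and Puma-/- and from -0.648 to 0.0916 against WT. Ratio differences that turned were -0.0274 to 0.0579, -0.123 to 0.00432 and -0.116 to 0.0112 for Hba to Hbb, -0.397 to 0.0353, -0.324 to 0.109, -0.248 to 0.184 and -0.0244 to 0.136 for Hba-a1 to Hba-a2, and -0.239 to 0.0349, -0.0815 to 0.0329, -0.143 to 0.131 and -0.0694 to 0.204 for Hbb-bs to Hbb-bt.

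Counts of genes passing over the whole table were 15 for Puma-/- against WT, 7 for G3 mTerc-/-Puma+/+ against WT, 152 for G3 mTerc-/-Puma+/+ against Puma-/-, 10 for the interaction, and, for the libraries labelled as G3 mTerc-/-Puma-/-, 58 against Puma-/-, 14 against G3 mTerc-/-Puma+/+ and 12 against WT. In this order DESeq2 gave 136, 46, 996, 64, 287, 172 and 91, and leaving out single libraries gave 11 to 28, 1 to 8, 18 to 228, 5 to 11, 18 to 93, 4 to 38 and 1 to 16. With all 15 libraries the second count was 4, the third was 24 and the sixth was 6. Scaling by library size alone gave 8 and no filter 33 for the sixth, and limma-voom gave 5 for the interaction. With the compared groups alone the second was 3, the fifth 90, the sixth 2 and the seventh 5. The replicate block gave 21 for the fifth and 43 for the third, and no globin gene passed with it (1.31 to 1.54 against Puma-/-). Same-numbered libraries did not deviate together (median r 0.0203 over 18 pairs), so that the block has no basis in the design. The causes were not tested. Of the 10 genes most like the globins, 6 stayed with Spearman's rho and 6 with deviations from genotype means.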
